A study of Mus musculus with 163 samples.

Results

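The genes described here are 42 components of the ribbon synapse and of the machinery that releases synaptic vesicles, chosen by name as a list. The list was chosen with earlier results of these data known. All 42 were found in the count table of 55291 genes, and 36 of them reached 1 count per 1000000 counts (CPM) in at least 1 of the 4 groups of cells. They were followed in 163 single hair cells picked by hand from the cochleae of mice at postnatal day 7. The controls (Ctrl) carried the Atoh1P2A-Tdtomato/+ genotype, in which 1 allele of the hair cell gene Atoh1 also makes a red fluorescent protein. The mutants (Exp) were Atoh1P2A-Cre/P2A-Tdtomato/+; Rbm24flox/flox, so that Cre, made wherever Atoh1 is active, removed the RNA-binding protein gene Rbm24, and the design text calls these cells Rbm24-/-. The Cre insertion and the second modified Atoh1 allele differed between the groups together with Rbm24 and cannot be told apart from it. Outer hair cells (OHCs) numbered 43 in controls (Ctrl OHC) and 56 in mutants (Exp OHC), and inner hair cells (IHCs) 38 in controls (Ctrl IHC) and 26 in mutants (Exp IHC). The sources used here do not give the way in which cells were sorted into the inner and outer types, and the protocol text writes of endogenous IHCs and iOHCs, a term that the group labels do not use. No label names the animal of a cell, so each group is 1 sample and no difference was tested. Intervals of ratios cover only counting error, with the spread between cells left out. Those of shares of cells take the cells as independent draws and describe only the cells picked. The spread between animals is in none of them.

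Inner hair cells pass sound information to the auditory nerve at ribbon synapses, where an electron-dense ribbon built from the Ribeye product of Ctbp2 holds vesicles close to calcium channels at the active zone. Release in mature inner hair cells depends on otoferlin, the product of Otof, in place of the synaptotagmins that sense calcium at most brain synapses. The core fusion proteins are the SNAREs syntaxin, SNAP25 and VAMP, which are held and primed by complexins and Munc13 proteins and taken apart again by Nsf with its SNAP adaptors (Napa and Napb). Outer hair cells amplify sound mechanically and have fewer afferent ribbons.

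Cell totals ranged from 5.47e+06 to 1.81e+07 counts. Summed over cells, OHCs held 4.00e+08 counts in controls and 7.20e+08 in mutants, and IHCs 3.49e+08 and 3.65e+08. In the summed counts of the shallowest group 10 CPM is known to within 9.67 and 10.3 CPM by counting. In a single cell, with far fewer counts, it is known less closely. Rbm24 itself ran from 78.8 to 917 CPM in the cells of Ctrl OHC and from 0 to 2.43 CPM in those of Exp OHC, and from 202 to 921 CPM in Ctrl IHC and 0 to 15.6 CPM in Exp IHC. The 6 hair cell identity genes checked (Myo7a, Pou4f3, Gfi1, Myo6, Tmc1 and Lhx3) were at 1 CPM or more in all 4 groups, and their summed level was between 3892 and 4305 CPM. All 6 OHC markers read were higher in OHCs than in IHCs of the same genotype, but lower in Exp OHC than in Ctrl OHC: the motor gene Slc26a5 was at 376 CPM in Ctrl OHC, 27.5 CPM in Exp OHC and under 1 CPM in both IHC groups, and Ocm at 4951, 18.6, 34.2 (Ctrl IHC) and 0.0219 CPM (Exp IHC). Of 6 IHC markers, all were higher in IHCs than in OHCs of controls and 5 in mutants. All 6 were also lower in Exp IHC than in Ctrl IHC, with sums of 2358 and 6478 CPM. Fgf8, Tbx2 and Brip1 were at 2.15 CPM or less in both OHC groups, Calb2 was also high in Ctrl OHC (2936 CPM), and Slc7a14 was higher in Exp OHC (69.5 CPM) than in Exp IHC (23.3 CPM). By its Slc26a5 and Slc17a8 levels 1 Ctrl OHC went against its label. Slc26a5 under 1 CPM counted against the label in Ctrl OHC alone, so Exp OHCs were not held to that rule. Male cells, taken as those with Y-linked transcripts at 10 CPM or more and Xist under that level, were 74.4% of the OHCs and 68.4% of the IHCs of controls, but 28.6% and 26.9% of those of mutants. Sex and genotype were therefore mixed unevenly.

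In mutant outer hair cells Otof was lower and the 6 synaptotagmins of the list, Stx1a, Cplx1 and Rims2 were higher than in controls. Ctbp2, Snap25 and Vamp2 were close to level. Of the 36 genes, 12 were at least 2-fold higher in Exp OHC than in Ctrl OHC and 3 were at least 2-fold lower. Among all 17184 genes with a ratio, 22.1% were at least 2-fold higher and 16.7% at least 2-fold lower. The median log2 ratio was 0.46 over the 36 genes and 0.07 over all genes. In inner hair cells 6 of the 36 were at least 2-fold higher and 2 at least 2-fold lower, against 21.1% and 17.2% of 17040 genes, with medians of 0.20 and 0.09. These shares count the genes that passed the 1 CPM filter in any of the 4 groups. Of the 12 higher in OHCs, Syt5, Sv2b and Syn2 were under 1 CPM in both OHC groups and passed through the IHC groups. Of the 6 higher in IHCs, Nlgn3 was under 1 CPM in both IHC groups and passed through the OHC groups. In OHCs 3 of the 36, and in IHCs 2, reached 1 CPM in only 1 of the 2 groups compared and so had to differ. Of all 17618 genes at that level, 3145 did so in OHCs and 3171 in IHCs. The 6 listed synaptotagmins were all at least 2-fold higher in Exp OHC, whereas of the abundant synaptotagmins outside the list, given below, Syt13 was higher and Syt6 and Syt14 were within 2-fold. The listed SNAREs other than syntaxin 1A stayed within 2-fold in summed counts in both cell types.

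**Figure D1:**
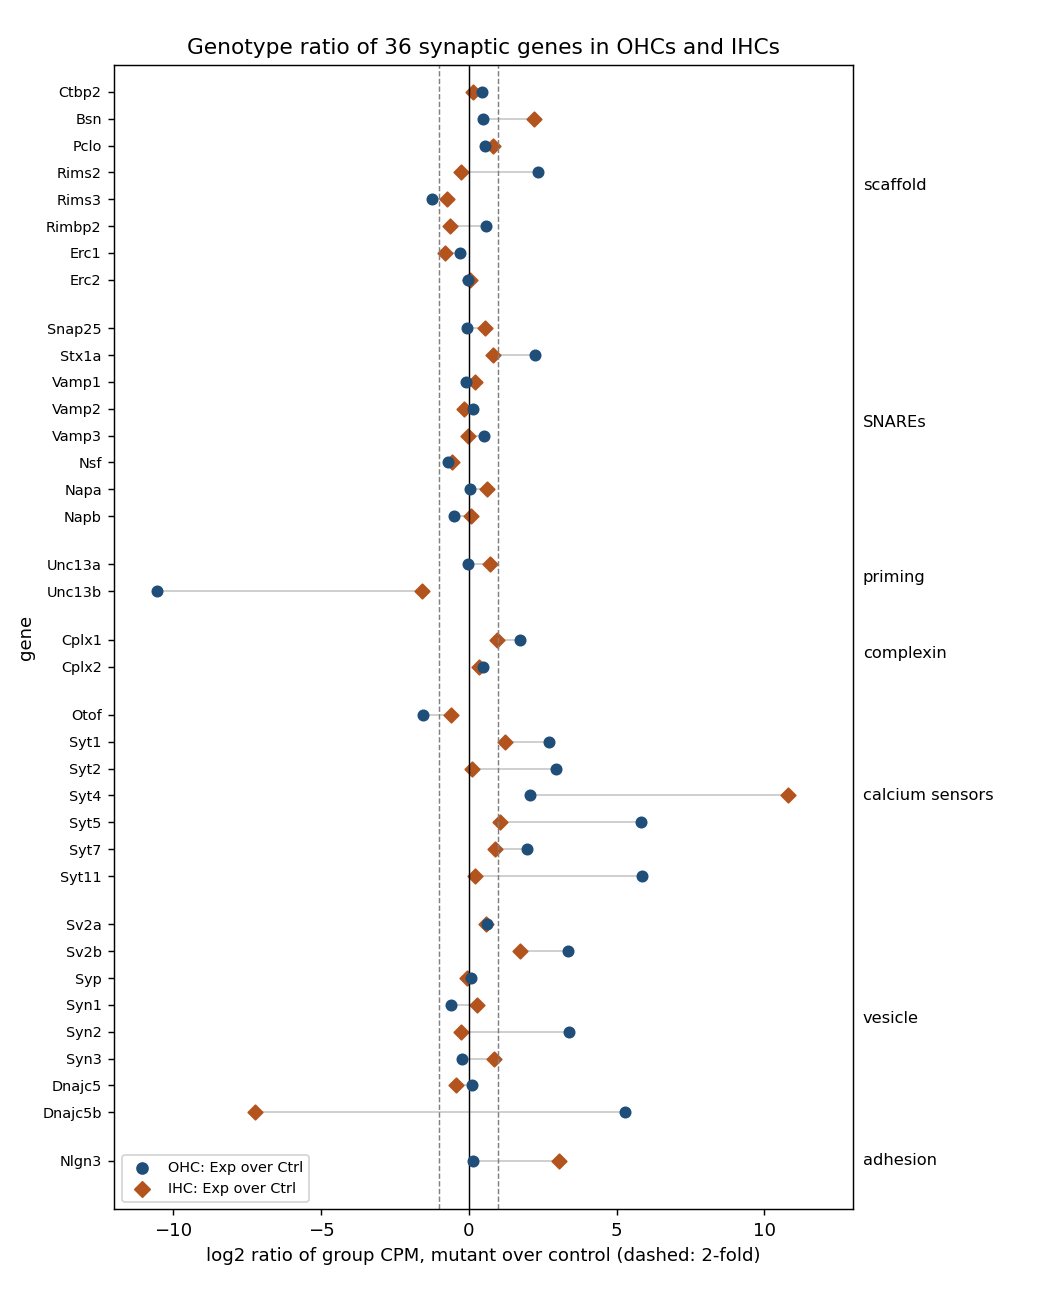
Log2 ratio of the group level (CPM), mutant over control, for the 36 genes at 1 CPM or more in at least 1 group, by class (circles, OHCs; diamonds, IHCs; dashed lines, 2-fold). The 6 listed synaptotagmins lie to the right of the 2-fold line in OHCs, Otof to the left at -1.56, and Dnajc5b lies on opposite sides in OHCs (5.29) and IHCs (-7.25).

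Promoter windows are shown for the genes with a start in the RefSeq table (build GRCm38.p6) that were at least 2-fold higher in Exp OHC at 10 CPM or more (Stx1a, Cplx1, Syt1 and Syt2), and for Rims3, which was lower, so that a reader can set their sequence beside their levels. Each is the 250 bases before an annotated start, 5′ to 3′ on the gene's strand. Capitals mark the E-box CAGCTG, which reads the same on both strands, and the GC box GGGCGG, written CCGCCC where it lies on the other strand. Otof, Rims2, Syt4, Syt7 and Dnajc5b had no window in the table.
Cplx1 (GRCm38.p6, chr5:108550028-108550277, minus strand): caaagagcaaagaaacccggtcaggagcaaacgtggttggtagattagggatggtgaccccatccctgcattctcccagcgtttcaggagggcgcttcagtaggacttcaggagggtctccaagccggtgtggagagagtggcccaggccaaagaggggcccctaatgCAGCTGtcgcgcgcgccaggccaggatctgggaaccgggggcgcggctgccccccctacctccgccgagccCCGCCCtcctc
Rims3 (GRCm38.p6, chr4:120854549-120854798, plus strand): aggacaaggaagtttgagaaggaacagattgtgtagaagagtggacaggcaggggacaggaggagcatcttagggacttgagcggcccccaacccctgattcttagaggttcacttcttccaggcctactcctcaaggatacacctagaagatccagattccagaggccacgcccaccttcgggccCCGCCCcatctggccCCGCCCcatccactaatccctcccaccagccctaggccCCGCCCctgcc
Stx1a (GRCm38.p6, chr5:135023232-135023481, plus strand): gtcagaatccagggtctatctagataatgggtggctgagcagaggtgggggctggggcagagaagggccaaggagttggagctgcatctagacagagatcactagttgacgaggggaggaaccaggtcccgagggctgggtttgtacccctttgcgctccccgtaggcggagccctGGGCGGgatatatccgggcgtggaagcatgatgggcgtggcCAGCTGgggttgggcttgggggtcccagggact
Syt1, first start listed (GRCm38.p6, chr10:109010976-109011225, minus strand): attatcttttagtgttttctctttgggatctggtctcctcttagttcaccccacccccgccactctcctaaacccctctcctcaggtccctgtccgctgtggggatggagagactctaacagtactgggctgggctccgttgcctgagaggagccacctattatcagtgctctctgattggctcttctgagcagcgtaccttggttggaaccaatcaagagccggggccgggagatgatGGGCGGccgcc
Syt1, second start listed (GRCm38.p6, chr10:109009112-109009361, minus strand): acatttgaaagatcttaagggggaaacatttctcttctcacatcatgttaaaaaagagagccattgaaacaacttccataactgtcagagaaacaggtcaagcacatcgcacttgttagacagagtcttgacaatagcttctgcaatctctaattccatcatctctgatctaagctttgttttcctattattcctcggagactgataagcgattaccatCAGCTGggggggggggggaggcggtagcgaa
Syt2, first start listed (GRCm38.p6, chr1:134646362-134646611, plus strand): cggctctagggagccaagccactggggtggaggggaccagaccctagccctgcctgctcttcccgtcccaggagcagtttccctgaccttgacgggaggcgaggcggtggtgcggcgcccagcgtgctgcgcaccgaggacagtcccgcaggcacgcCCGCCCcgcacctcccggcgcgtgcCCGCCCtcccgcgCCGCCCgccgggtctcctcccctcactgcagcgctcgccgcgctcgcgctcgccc
Syt2, second start listed (GRCm38.p6, chr1:134709050-134709299, plus strand): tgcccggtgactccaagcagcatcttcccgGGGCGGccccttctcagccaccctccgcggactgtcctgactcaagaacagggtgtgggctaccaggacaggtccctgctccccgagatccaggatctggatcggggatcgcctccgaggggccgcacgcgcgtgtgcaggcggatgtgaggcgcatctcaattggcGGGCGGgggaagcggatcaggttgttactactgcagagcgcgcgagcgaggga

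Across the 28 of 42 genes with a window (35 windows), the GC box was in 54.3% of the windows, against 32.7% of all 32851 windows of that length. The E-box was in 22.9% of the windows, against 13.0%. Median GC content was 61.2% in the 35 windows and 52.4% over all. Rims3, with 3 GC boxes, was lower in Exp OHC, whereas Stx1a and Cplx1, each with 1 GC box and 1 E-box, were higher. Syt2, with 3 and 2 GC boxes in its windows and no E-box, was higher too. So was Syt1, with 1 GC box in its first window and 1 E-box in its second. The other genes past 2-fold in OHCs with a window are not printed. Of these, Unc13b, with 4 GC boxes, was lower in Exp OHC (log2 -10.56). Syt11 (2 GC boxes), Syn2 (2 and 0 in its windows) and Sv2b (0 in each window) were higher. Whether the number of GC boxes goes with the direction was not tested. A match is a description of the letters and no sign of binding.

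Otof (chr5:30367062-30461932, minus strand, mm10), the calcium sensor of hair cell exocytosis, ran from 168 to 2954 CPM in Ctrl OHC cells with a median of 941 CPM, and from 16.0 to 1519 CPM in Exp OHC with a median of 297 CPM. The 2 sets of cells overlapped, but 7 Exp OHCs lay below every Ctrl OHC and 10 Ctrl OHCs lay above every Exp OHC. No cell of any group was without Otof. The group level was 1151 CPM in Ctrl OHC and 390 CPM in Exp OHC, a log2 ratio of -1.56 (95% counting interval -1.57 to -1.55), or 2.95-fold lower. In IHCs, where Otof is normally highest, cells ran from 1156 to 5465 CPM (median 2370) in Ctrl IHC and from 475 to 3851 CPM (median 1685) in Exp IHC. The ratio there was 1.50-fold lower (log2 -0.59, interval -0.59 to -0.58), short of 2-fold, with 5 Exp IHCs below every Ctrl IHC.

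Syt1 (chr10:108497650-109010982, minus strand), the fast calcium sensor of brain synapses, ran from 0 to 178 CPM in Ctrl OHC cells with a median of 0.239 CPM. In Exp OHC it ran from 0 to 355 CPM with a median of 129 CPM, and 17 of these cells lay above every Ctrl OHC. Cells at 10 CPM or more made up 39.5% of Ctrl OHCs (exact binomial interval 25.0 to 55.6%) and 91.1% of Exp OHCs (80.4 to 97.0%). Group levels of 20.0 and 130 CPM gave a log2 ratio of 2.70 (interval 2.67 to 2.73). In IHCs the cell median for Syt1 was 35.1 CPM in controls (0 to 205) and 88.6 CPM in mutants (0 to 290), with a log2 ratio of 1.24 (1.21 to 1.27). Most Exp OHCs thus carried a transcript that most Ctrl OHCs held at under 10 CPM, and in IHCs the sets of cells overlapped more.

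Syt2 (chr1:134646677-134762593, plus strand), a close relative of Syt1 and another fast sensor, was at 10 CPM or more in 3 of 43 Ctrl OHCs and in 26 of 56 Exp OHCs. The cells ran from 0 to 105 CPM (median 0) and from 0 to 160 CPM (median 7.48), and 1 cell held 59.1% of the Ctrl OHC counts. The group level was 3.78 CPM in Ctrl OHC and 29.0 CPM in Exp OHC, a log2 ratio of 2.94 (2.86 to 3.02). Inner hair cells differed: Syt2 ran from 0 to 186 CPM (median 47.6) in Ctrl IHC and from 0 to 206 CPM (median 52.6) in Exp IHC, 53.9 and 58.3 CPM for the groups, with a log2 ratio of 0.11.

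Syt4, a synaptotagmin whose first C2 domain binds calcium weakly and which sits on neurosecretory vesicles, ran from 0 to 72.2 CPM in Ctrl OHC (median 0) and from 0 to 182 CPM in Exp OHC (median 19.5). It was at 10 CPM or more in 14.0% of Ctrl OHCs (5.30 to 27.9%) and 67.9% of Exp OHCs (54.0 to 79.7%), and the log2 ratio was 2.06 (2.00 to 2.11). In Ctrl IHC no cell exceeded 0.291 CPM, and the group held 4 counts in all. In Exp IHC the cells ran from 0 to 182 CPM with a median of 6.93 CPM, 14 of 26 lay above every Ctrl IHC, and 1 cell held 38.9% of the counts. The IHC log2 ratio was 10.80 (9.44 to 12.67), its size being set by the near absence in controls. A noncoding gene on the other strand, Gm26658, covers 14.5% of the Syt4 exons, and its level was at most 0.0400 CPM in any group.

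Syt7 (chr19:10389090-10453180, plus strand), a slow, high-affinity sensor, had cells from 0 to 131 CPM (median 0.282) in Ctrl OHC and from 0 to 195 CPM (median 19.9) in Exp OHC. At 10 CPM or more were 23.3% and 58.9% of the cells, and the log2 ratio was 1.98 (1.93 to 2.02). In IHCs the Syt7 median was 13.4 CPM in controls (0 to 128) and 30.0 CPM in mutants (0 to 172), with a log2 ratio of 0.87 (0.83 to 0.91). Both other synaptotagmins were sparse. Syt11 was at 0 in 42 of 43 Ctrl OHCs and reached 10 CPM in 4 of 56 Exp OHCs, with group levels of 0.0726 and 4.23 CPM. Syt5 was at 0 in all 43 Ctrl OHCs, and Exp OHC held 0.432 CPM, with 82.3% of it in 1 cell. That is 57.5-fold higher if the controls are put at 3 counts in all (lower limit of the log2 ratio 5.54). In IHCs Syt11 was level (log2 0.20) and Syt5 was at 3.25 and 6.81 CPM (log2 1.07), and 1 cell held 61.0% of the Ctrl IHC counts of Syt5.

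On a length-scaled level (TPM, the share of a group's transcripts once each gene is divided by its exonic length), which allows genes to be compared with each other, Otof stood at 324 TPM in Ctrl OHC and 119 TPM in Exp OHC. The 6 listed synaptotagmins summed to 13.9 TPM in Ctrl OHC and 81.6 TPM in Exp OHC. Otof was therefore 23.3 times their sum in Ctrl OHC and 1.45 times in Exp OHC. In IHCs Otof was at 673 and 503 TPM and the 6 summed to 36.7 and 81.8 TPM, giving ratios of 18.4 in Ctrl IHC and 6.16 in Exp IHC. The sum of the 6 was thus nearly equal in both mutant groups. Syt1 made up the largest part in each of them (37.5 and 30.0 TPM), followed by Syt4 in Exp OHC (18.5 TPM) and Syt2 in Exp IHC (17.9 TPM).

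These 6 are not the whole family, and the wider list read below holds 9 more synaptotagmins, of which 6 reached 1 CPM in a group. Syt14, which binds no calcium, was at 183 CPM in Ctrl OHC, 154 CPM in Exp OHC, 214 CPM in Ctrl IHC and 159 CPM in Exp IHC (log2 -0.25 and -0.43). Syt6 was at 88.8, 45.7, 57.5 and 57.3 CPM in the same order (log2 -0.96 and 0.00). Syt13, also without calcium binding, was at 14.9, 99.7, 34.4 and 70.7 CPM (log2 2.74 and 1.04), and 1 cell held 47.7% of its Ctrl OHC counts. In Ctrl OHC, Syt14 (34.1 TPM) and Syt6 (33.9 TPM) each exceeded the 6 listed genes together. Syt3 was at 4.52 and 7.10 CPM in OHCs, Syt17 at 0 and 4.11 CPM and Syt9 at 0 and 2.43 CPM. Over all 15 the sum was 93.9 TPM in Ctrl OHC, 204 TPM in Exp OHC, 120 TPM in Ctrl IHC and 192 TPM in Exp IHC. Otof was 3.45, 0.581, 5.59 and 2.62 times that sum. The ratio of Otof to synaptotagmins was lower in mutants with either set, and its size rests on which genes are counted.

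**Figure D2:**
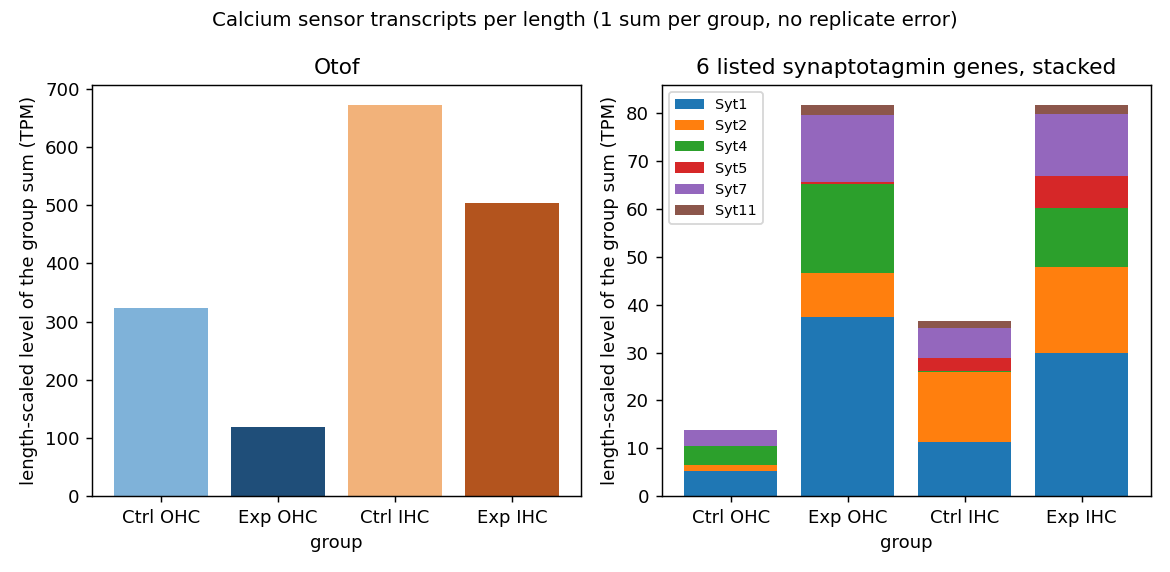
Length-scaled level (TPM) of Otof (left) and of the 6 listed synaptotagmin genes stacked (right) in the 4 groups, each bar from 1 summed group with no replicate error. Otof is at 119 TPM in Exp OHC, and the stacks of both mutant groups reach 81.6 and 81.8 TPM. The 9 synaptotagmins outside the list are not drawn.

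The number of the 6 listed synaptotagmin genes at 10 CPM or more in the same cell was also higher in mutants. Ctrl OHCs had a median of 1 such gene (0 to 3), Exp OHCs 3 (0 to 5), Ctrl IHCs 2 (0 to 4) and Exp IHCs 3 (0 to 5). None of the 6 reached 10 CPM in 41.9% of Ctrl OHCs (27.0 to 57.9%) and 5.36% of Exp OHCs (1.12 to 14.9%). At least 2 did so in 20.9% of Ctrl OHCs (10.0 to 36.0%), 83.9% of Exp OHCs (71.7 to 92.4%), 68.4% of Ctrl IHCs (51.3 to 82.5%) and 92.3% of Exp IHCs (74.9 to 99.1%). Counted over all 15 synaptotagmins, every cell held at least 1 at 10 CPM or more, and the medians were 3 genes in control and 5 in mutant OHCs, and 4 and 5.5 in IHCs. Over all 36 genes, the median cell held 16, 19, 20 and 20.5 genes at 10 CPM or more in the same order. Exp OHCs were sequenced more deeply (median total 1.28e+07 counts against 9.09e+06 in Ctrl OHCs), and CPM divides each cell by its own total.

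**Figure D3:**
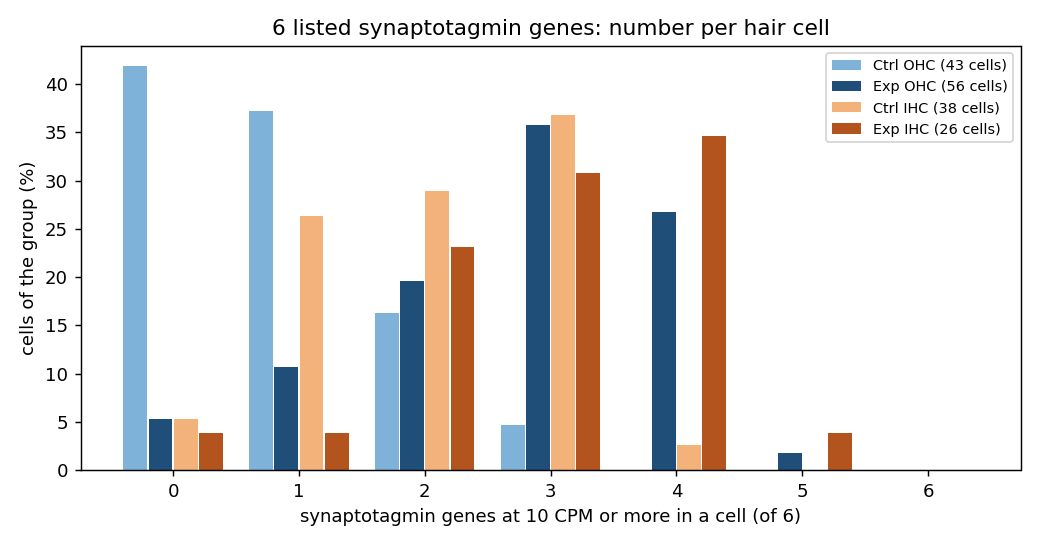
Share of the cells of each group (percent) by the number of the 6 listed synaptotagmin genes at 10 CPM or more in a cell. The Ctrl OHC bars are tallest at 0 and 1 gene (41.9% and 37.2%), and the Exp OHC bars at 3 and 4 genes (35.7% and 26.8%).

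Stx1a (chr5:135023482-135051100, plus strand), the neuronal plasma membrane syntaxin, was the 1 listed SNARE past 2-fold between genotypes. It ran from 0 to 158 CPM in Ctrl OHC cells (median 0) and from 0 to 336 CPM in Exp OHC (median 75.5), and 12 Exp OHCs lay above every Ctrl OHC. The group level was 19.5 CPM in Ctrl OHC and 91.6 CPM in Exp OHC, a log2 ratio of 2.23, or 4.69-fold. In IHCs, Stx1a stayed at 0 in most control cells (median 0, highest 103 CPM) and had a median of 0.174 CPM and a highest cell of 104 CPM in mutants, with a log2 ratio of 0.80. The other core SNAREs stayed within 2-fold. Snap25, the other plasma membrane SNARE, ran from 3.31 to 513 CPM (median 199) in Ctrl OHC and from 0.353 to 538 CPM (median 141) in Exp OHC, a log2 ratio of -0.06. In IHCs the Snap25 medians were 190 CPM (41.8 to 459) and 296 CPM (56.1 to 594), a log2 ratio of 0.55. Vamp2, the vesicle SNARE, had medians of 97.6 CPM (0 to 361) in Ctrl OHC, 101 CPM (0 to 366) in Exp OHC, 107 CPM (0.272 to 376) in Ctrl IHC and 95.2 CPM (0.968 to 343) in Exp IHC, with log2 ratios of 0.15 and -0.15.

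The other listed vesicle SNAREs and the recycling factors also lay within 2-fold between genotypes in summed counts, but the medians of cells moved further for Vamp3, Nsf and Napb. Vamp1 and Vamp3 had log2 ratios of -0.09 and 0.52 in OHCs and 0.20 and -0.04 in IHCs. The Vamp3 median was 5.01 CPM in Ctrl OHC and 42.4 CPM in Exp OHC, and 47.5 CPM in Ctrl IHC and 13.3 CPM in Exp IHC. Nsf, the ATPase that separates used SNARE complexes, was at 94.4 CPM in control and 58.2 CPM in mutant OHCs, and at 79.1 and 53.1 CPM in IHCs (log2 -0.70 and -0.57). Its median was 74.4 CPM in Ctrl IHC and 8.52 CPM in Exp IHC, where cells at 10 CPM or more made up 81.6% (65.7 to 92.3%) and 50% (29.9 to 70.1%). Napa, its main adaptor, was in every cell, with cell medians of 494 CPM (199 to 861) in Ctrl OHC and 502 CPM (21.4 to 1015) in Exp OHC, and 236 CPM (63.2 to 629) in Ctrl IHC and 398 CPM (89.3 to 701) in Exp IHC. Its genotype log2 ratios were 0.04 and 0.61. Napb, the brain form, had log2 ratios of -0.51 and 0.09, and its OHC median was 30.2 CPM in controls and 2.86 CPM in mutants.

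Sums and medians of cells parted for other genes too. Of the 21 genes within 2-fold by summed counts in OHCs, 7 had medians (CPM plus 1) past 2-fold: Pclo, Vamp3 and Cplx2 were higher in Exp OHC, and Erc1, Napb, Sv2a and Syn1 lower. Of 28 such genes in IHCs, 7 did so: Pclo and Syt7 were higher, and Rims3, Erc1, Vamp3, Nsf and Unc13a lower. Sv2a in OHCs and Unc13a in IHCs had sums and medians on opposite sides. No such count was made over all genes.

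Cplx1 (chr5:108518554-108550024, minus strand), a complexin that clamps and then promotes SNARE fusion, ran from 0 to 491 CPM in Ctrl OHC with a median of 0.134 CPM. In Exp OHC it ran from 0 to 489 CPM with a median of 126 CPM. The ranges were alike, and the difference lay in how many cells held it: 17 of 43 Ctrl OHCs and 52 of 56 Exp OHCs were at 10 CPM or more, and a single cell held 25.2% of the Ctrl OHC counts. Group levels were 43.0 and 144 CPM, a log2 ratio of 1.74 (1.72 to 1.77). In IHCs the Cplx1 medians were 44.2 CPM (0 to 209) and 51.8 CPM (0 to 466), and the log2 ratio of 0.97 (0.94 to 0.99) fell just short of 2-fold. Cplx2 had log2 ratios of 0.48 and 0.33. The retinal ribbon complexins Cplx3 and Cplx4 stayed under 1 CPM in all groups.

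**Figure D4:**
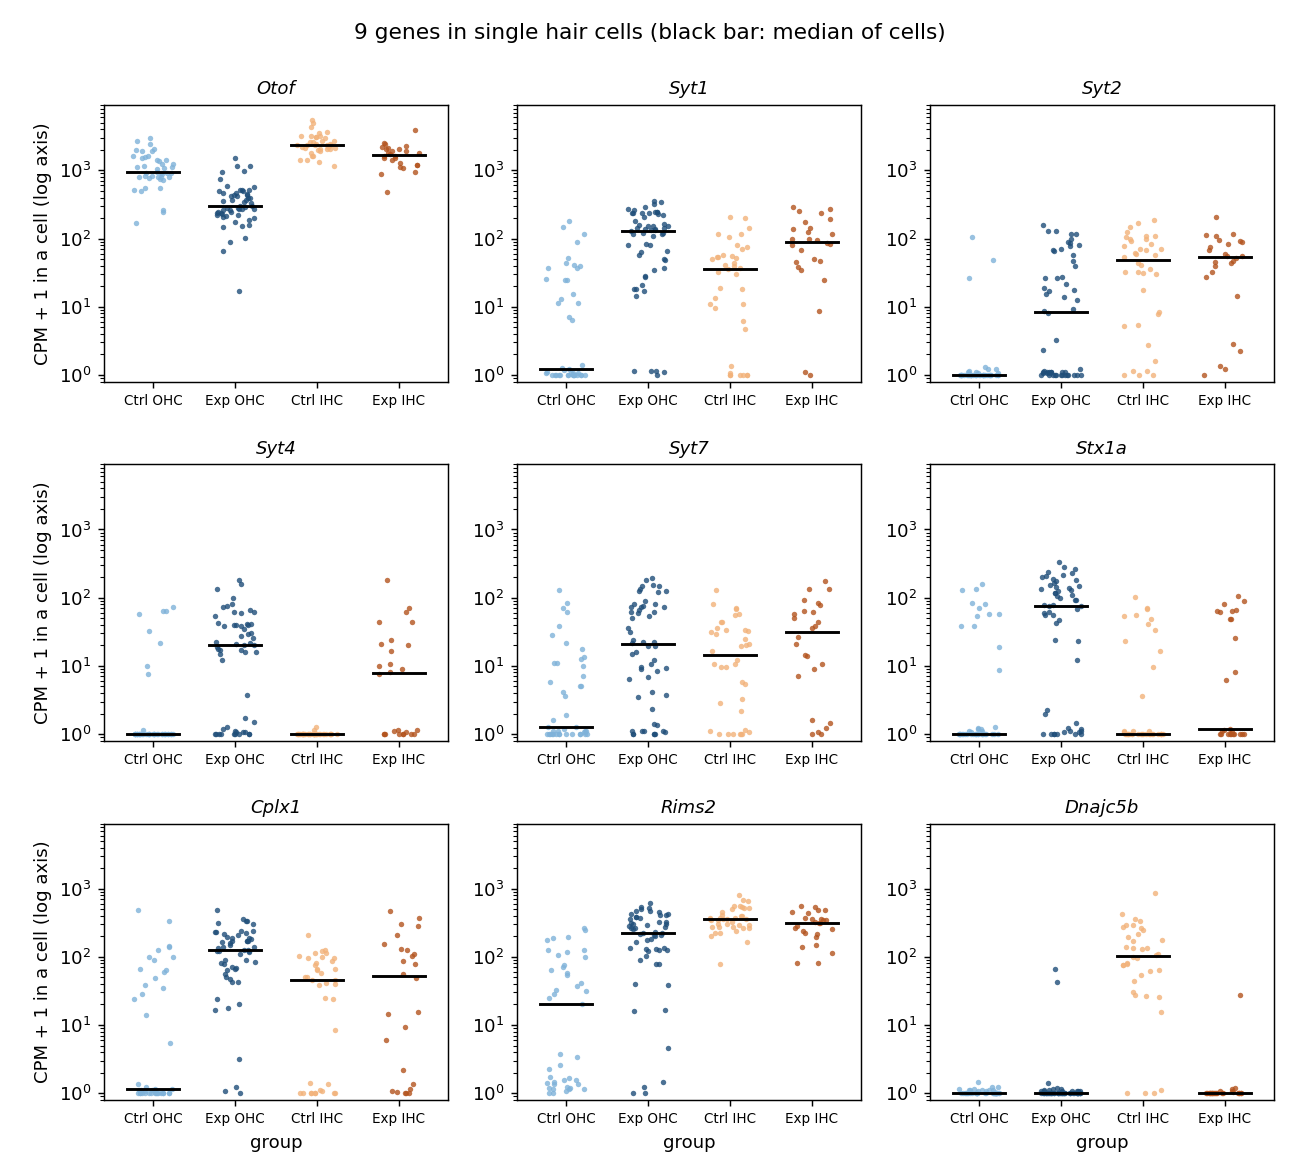
Level of 9 genes in single cells (CPM + 1 on a log axis) in the 4 groups, 1 point per cell, with the median of cells as a black bar. Syt1, Stx1a, Cplx1 and Rims2 are near the bottom of the axis in many Ctrl OHCs and above 10 CPM in most Exp OHCs, and Dnajc5b is above 10 CPM in 34 of 38 Ctrl IHCs and in 1 of 26 Exp IHCs.

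Among the scaffolds, Rims2 and Rims3 went in opposite directions in OHCs. Rims2 (chr15:39198261-39684372, plus strand), which tethers calcium channels and vesicles at the active zone, ran from 0 to 268 CPM in Ctrl OHC (median 19.2) and from 0 to 614 CPM in Exp OHC (median 223), and 23 Exp OHCs lay above every Ctrl OHC. The group level of Rims2 was 47.1 CPM in Ctrl OHC and 239 CPM in Exp OHC, a log2 ratio of 2.34 (2.32 to 2.37). In IHCs every cell held Rims2, with a median of 358 CPM in controls (77.9 to 803) and 313 CPM in mutants (80.5 to 553), a log2 ratio of -0.26. Rims3 (chr4:120854816-120896579, plus strand), a short RIM isoform gene that lacks the Rab-binding part, ran from 0 to 306 CPM (median 58.2) in Ctrl OHC and from 0 to 194 CPM (median 10.7) in Exp OHC. Its level was 70.2 and 29.2 CPM, a log2 ratio of -1.26 (-1.29 to -1.24), and in IHCs 64.6 and 38.6 CPM, a log2 ratio of -0.74, with medians of 61.8 and 13.7 CPM. The cells of the 2 genotypes overlapped for Rims3, with 3 Ctrl OHCs above every Exp OHC.

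The ribbon gene itself was close to level. Ctbp2 (chr7:132987563-133124354, minus strand) had cell medians of 76.8 CPM (0 to 277) in Ctrl OHC and 113 CPM (2.56 to 333) in Exp OHC, with a log2 ratio of 0.44. In IHCs it had medians of 116 CPM (17.3 to 337) and 138 CPM (10.5 to 467) and a log2 ratio of 0.13. These gene counts do not separate Ribeye from the corepressor made from the same gene, and 5.05% of its exons overlap Fgfr2, which was at 0.00278 CPM or less in every group. Bsn, the large active zone protein bassoon that anchors the ribbon, ran from 0 to 145 CPM (median 0.101) in Ctrl OHC and from 0 to 106 CPM (median 0.0685) in Exp OHC, with a log2 ratio of 0.48. In IHCs Bsn ran from 0 to 45.8 CPM (median 0) in controls and from 0 to 161 CPM (median 3.24) in mutants. Its IHC log2 ratio was 2.21 (2.12 to 2.29), and 1 cell held 35.9% of the mutant counts. Pclo, bassoon's relative piccolo, had medians of 10.9 CPM (0 to 240) in Ctrl OHC, 45.8 CPM (0 to 244) in Exp OHC, 25.8 CPM (0 to 131) in Ctrl IHC and 58.6 CPM (0.0709 to 173) in Exp IHC. Its log2 ratios from the summed counts were 0.56 and 0.81, both under 2-fold.

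Rimbp2, which links RIM to calcium channels, had log2 ratios of 0.58 in OHCs and -0.65 in IHCs. Erc1 and Erc2, active zone scaffolds of the ELKS family, had -0.31 and -0.01 in OHCs and -0.82 and 0.03 in IHCs. The Erc1 medians were 20.9 and 1.89 CPM in OHCs and 31.2 and 13.9 CPM in IHCs. Rims1, the main RIM of brain synapses, was at most at 0.00833 CPM in any group.

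Of the Munc13 priming factors, Unc13a was at 11.9 CPM in control and 11.6 CPM in mutant OHCs, and at 11.1 and 18.4 CPM in IHCs (log2 -0.03 and 0.73), where its medians were 1.98 and 0.314 CPM. Unc13b was present in few cells. It was at 0 in 32 of 43 Ctrl OHCs, ran up to 107 CPM in the others, and was at 10 CPM or more in 5 of them. In Exp OHC it was at 0 in 54 of 56 cells, no cell exceeded 0.176 CPM, and 3 counts were found in all, against 2511 counts in Ctrl OHC. The log2 ratio was -10.56 with an interval of -12.84 to -9.01, and a share of 0 cells at 10 CPM allows up to 5.36%. In IHCs Unc13b was at 10 CPM or more in 3 of 38 control cells and 1 of 26 mutant cells (highest 78.8 and 37.9 CPM, log2 -1.58), with 99.8% of the mutant counts in that cell. The gain or loss of a few cells thus sets the Unc13b ratio.

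Dnajc5b (chr3:19508595-19610862, plus strand), a testis and hair cell relative of the vesicle chaperone cysteine string protein, was the 1 gene of the 36 past 2-fold in opposite directions in the 2 cell types, against 6.94% of 16606 genes. In Ctrl IHC it ran from 0 to 855 CPM with a median of 103 CPM, and 34 of 38 cells (89.5%, interval 75.2 to 97.1%) were at 10 CPM or more. In Exp IHC it was at 0 in 20 of 26 cells, its highest cell was at 26.9 CPM, and that cell held 97.7% of the counts. The group level was 143 CPM in Ctrl IHC and 0.938 CPM in Exp IHC, a log2 ratio of -7.25 (-7.41 to -7.10), or 153-fold lower, and 30 Ctrl IHCs lay above every Exp IHC. In OHCs the level was low throughout: no Ctrl OHC exceeded 0.452 CPM, and 2 of 56 Exp OHCs reached 10 CPM (highest 65.1 CPM). The OHC log2 ratio of 5.29 (4.65 to 6.03) rests on those 2 cells. The widely expressed Dnajc5 stayed within 2-fold, at 74.1 and 79.6 CPM in OHCs and 99.2 and 73.8 CPM in IHCs.

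The other vesicle proteins split by abundance. Sv2a, the main SV2 glycoprotein of vesicles, was at 17.2 and 26.5 CPM in OHCs and 17.9 and 26.7 CPM in IHCs (log2 0.63 and 0.58), while its OHC medians were 6.87 and 1.86 CPM. Syp (synaptophysin) had log2 ratios of 0.08 and -0.07, Syn1 -0.61 and 0.27, and Syn3 -0.24 and 0.84. Sv2b was at 0 in 42 of 43 Ctrl OHCs and 48 of 56 Exp OHCs, and its OHC log2 ratio of 3.35 came from 0.0976 and 0.994 CPM, with 99.0% of the mutant counts in 1 cell. In IHCs Sv2b ran from 0 to 89.9 CPM (median 0) in controls and from 0 to 127 CPM (median 2.60) in mutants. There 3 of 38 and 11 of 26 cells were at 10 CPM or more and the log2 ratio was 1.72 (1.65 to 1.79). Syn2, a synapsin that tethers vesicles to actin, did not reach 10 CPM in any OHC (0.0300 and 0.312 CPM, log2 3.38). In IHCs Syn2 ran from 0 to 147 CPM in controls and from 0 to 112 CPM in mutants, at 14.6 and 12.3 CPM for the groups (log2 -0.25).

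Nlgn3, a postsynaptic type adhesion protein, was the gene nearest above the 1 CPM limit, with a highest group level of 1.34 CPM, followed by Syt11 at 4.23 CPM. In Ctrl OHC all its counts came from 1 cell at 51.0 CPM, and 52 of 56 Exp OHCs were at 0. Another gene on the same strand, Gm21986, covers 41.2% of the Nlgn3 exons and was at 2.41 CPM in Exp OHC and at 0 in the other groups, so reads of the 2 genes cannot be told apart there. Its IHC levels were 0.00861 and 0.0713 CPM (log2 3.05, interval 1.34 to 5.42), on 3 and 26 counts. Just outside the limit were Cplx4, at most 0.631 CPM, and Cplx3, at most 0.528 CPM, each in Ctrl OHC. Doc2b reached 0.376 CPM in Exp OHC and was at 0 in the other groups, and Rims1, Unc13c and Sv2c stayed at 0.0222 CPM or less.

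The difference between the cell types was read directly as the OHC log2 ratio minus the IHC log2 ratio. It was at least 2-fold for 16 of the 36 genes, 11 toward OHCs and 5 toward IHCs, against 40.3% of 16606 genes, so the share is near that of all genes. Ratios past 2-fold in the same direction in both types were found for 5 of the 36, against 16.8%: Syt1, Syt4, Syt5, Sv2b and Unc13b. With 1 sample per group, the differences themselves were not tested. The largest toward OHCs among genes at 10 CPM or more in both mutant groups, a limit chosen after the values were seen, were Syt2 (2.83), Rims2 (2.60), Syt1 (1.46) and Stx1a (1.43).

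Controls of the 2 types were compared with each other as a background for these ratios. The comparison shares its samples with both genotype comparisons, and its values stand beside them as description. In Ctrl OHC, 4 of the 36 genes were at least 2-fold higher than in Ctrl IHC and 10 at least 2-fold lower. The shares over 17049 genes were 18.8% and 17.6%. Of the 36, 7 reached 1 CPM in only 1 of the 2 groups, as did 3109 of all 17618 genes at that level. The 10 lower in Ctrl OHC were Otof (log2 -1.15), Rims2 (-2.97), Syt1 (-1.17), Syt2 (-3.84), Syt7 (-1.02), Syt11 (-5.67), Syt5 (433-fold lower with Ctrl OHC put at 3 counts), Sv2b (-6.11), Syn2 (-8.93) and Dnajc5b (-11.56). Napa (1.08), Bsn (1.28), Syt4 (9.29) and Nlgn3 (7.15) were the 4 higher. Set side by side, Rims2 was at 47.1 CPM in Ctrl OHC, 239 CPM in Exp OHC and 370 CPM in Ctrl IHC. Syt2 was at 3.78, 29.0 and 53.9 CPM in the same groups. Syt1 in Exp OHC (130 CPM) and Stx1a (91.6 CPM) exceeded Ctrl IHC (45.1 and 14.2 CPM), while Otof in Exp OHC (390 CPM) was under both control types (1151 and 2547 CPM). The mutant OHC levels therefore lay between the control types for Rims2 and Syt2 and outside them for Syt1, Stx1a and Otof.

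The genes around this machinery were read from a list of 107, of which 105 were in the table and 94 were at 1 CPM or more in at least 1 group. In OHCs 18 of 93 with a ratio were at least 2-fold higher and 11 at least 2-fold lower, with a median log2 ratio of 0.00. In IHCs the counts were 18 and 11 of 92, with a median of 0.09. Those shares lie near the 22.1% and 16.7%, and 21.1% and 17.2%, of all genes. The presynaptic calcium channel Cacna1d was level, at 215 and 186 CPM in OHCs and 199 and 220 CPM in IHCs.

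With the 2 groups averaging 10 CPM or more, the 4 highest ratios in OHCs were those of Nlgn1, Cacna2d2, Rab3b and Cadm1. Cacna2d2, the calcium channel subunit that carries channels to the hair cell synapse, was at 3.02 and 39.7 CPM in OHCs and at 7.30 and 63.8 CPM in IHCs (log2 3.72 and 3.13). Rab3b, a vesicle GTPase that binds RIM, was at 24.8 and 199 CPM in OHCs and 35.7 and 266 CPM in IHCs (log2 3.00 and 2.90). Cadm1, a synaptic adhesion protein, was at 11.4 and 90.8 CPM and at 5.67 and 92.7 CPM (log2 2.99 and 4.03). Nlgn1, another adhesion protein, was at 0.138 and 28.1 CPM in OHCs (log2 7.67), and Rph3a, the Rab3 effector rabphilin, was at 0.00287 CPM on 1 count and 27.3 CPM in IHCs (log2 13.21, interval 10.73 to 18.52). All 5 were at least 2-fold higher in both cell types. Nlgn1 had an IHC log2 ratio of 9.66 (8.11 to 11.93) on 3 control counts, and Rph3a an OHC log2 ratio of 1.41.

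The 4 lowest in OHCs were Cabp2, Bin1, Ppfia3 and Ppfia4. Cabp2, which keeps hair cell calcium channels from inactivating, ran from 0.135 to 725 CPM in Ctrl OHC (median 107) and from 0 to 140 CPM in Exp OHC (median 0.252), with group levels of 145 and 9.24 CPM (log2 -3.97). In IHCs it was at 1937 and 1079 CPM (log2 -0.84). Bin1, a membrane-bending protein of endocytosis, was at 77.6 and 10.1 CPM in OHCs and 44.0 and 6.79 CPM in IHCs (log2 -2.95 and -2.70). Ppfia3 and Ppfia4, liprins of the active zone, had log2 ratios of -1.75 and -1.74 in OHCs and -1.01 and -0.58 in IHCs. In IHCs the 4 lowest were Bin1, the endocytic dynamin Dnm3 (162 and 34.4 CPM, log2 -2.24), the endosomal SNARE Vti1a (47.0 and 16.7 CPM, log2 -1.50) and Slc17a8 (252 and 110 CPM, log2 -1.20). Slc17a8 encodes a vesicular glutamate transporter that fills hair cell vesicles, and it was also at 6.16 CPM in Ctrl OHC and 0.0472 CPM in Exp OHC. Slc17a6, of the same gene family, was at 32.7 CPM in Ctrl OHC and 55.7 CPM in Exp OHC (log2 0.77). In IHCs Slc17a6 was at 0.0219 CPM or less. Of the factors that insert otoferlin's tail into membranes, 4 were read in OHCs, and they went both ways. Wrb was at 66.6 and 99.1 CPM (log2 0.57), Asna1 at 30.6 and 70.2 CPM (log2 1.20), Get4 at 127 and 88.4 CPM (log2 -0.52) and Bag6 at 58.3 and 51.7 CPM (log2 -0.17). Among the SNAREs outside the list of 42, Stx2, a plasma membrane syntaxin, was at least 2-fold higher in both types (log2 1.32 and 1.06), and Stx4a was so in IHCs (1.31).

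Many of these genes are also made by neurons, so a list of 12 neuronal genes was read in the same cells. Its summed level was 186 CPM in Ctrl OHC (cells 0 to 803), 700 CPM in Exp OHC (251 to 1331), 544 CPM in Ctrl IHC (200 to 940) and 1149 CPM in Exp IHC (451 to 2451). Under 1 CPM were 9 of the 12 genes in control OHCs, 5 in mutant OHCs, 5 in control IHCs and 6 in mutant IHCs. Neurofilaments Nefl and Nefm made up most of the sum (292 and 351 CPM in Exp OHC). Prph, a marker of sensory axons, was at 0 in all groups, and the sodium channel gene Scn1a was at most at 0.00278 CPM. Tubb3 and Mapt were at 0.0111 and 0.0125 CPM in Exp OHC, while Gap43 and Thy1 were at 0 in Ctrl OHC and at 25.7 and 15.8 CPM in Exp OHC. Stmn2 was at 0.218 and 12.1 CPM in OHCs and at 1.45 and 0.00548 CPM in IHCs. Of 6 efferent neuron genes, the cholinergic genes Chat and Slc18a3 were at 0 in all groups and Slc5a7 was at most at 0.00287 CPM, while Calca was at 34.2 CPM in Ctrl OHC, 179 CPM in Exp OHC, 0.0545 CPM in Ctrl IHC and 8.12 CPM in Exp IHC. Ddc was at 0 in both control groups and at 2.22 and 5.48 CPM in mutant OHCs and IHCs. Over the 7 glial genes the sum was 108 CPM in control and 334 CPM in mutant OHCs, and 203 and 503 CPM in IHCs, most of it from Cnp (330 and 501 CPM in the mutant types). The part of other cells' RNA in the synaptic results was not tested.

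Transcripts of supporting cells were read in the same way. The sum of Tectb, Otog, Gjb2, Gjb6 and Slc1a3 reached 10 CPM in 8 control and 5 mutant OHCs, and in 9 control and 0 mutant IHCs, the last of which allows a share of up to 11.5%. Over the whole list of 14 supporting cell genes, S100a1 included (2092 CPM in Ctrl OHC), the summed level was 2214 CPM in Ctrl OHC (cells 315 to 3815), 402 CPM in Exp OHC (66.4 to 1715), 2722 CPM in Ctrl IHC (1078 to 4476) and 3051 CPM in Exp IHC (1336 to 6246). Of the 14, control OHCs had 4 under 1 CPM and mutant OHCs 5, and control IHCs had 3 and mutant IHCs 9. Without the cells at 10 CPM of the 5 genes, 13 of the 36 genes were at least 2-fold higher and 3 at least 2-fold lower in Exp OHC, and 6 and 2 in Exp IHC.

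Because the male and female shares differed, the OHC ratios were also taken within each. Among cells with Y-linked transcripts (32 Ctrl OHCs and 16 Exp OHCs), the log2 ratio was -1.49 for Otof, 3.23 for Syt1, 3.35 for Syt2, 1.82 for Syt4, 1.11 for Syt7, 2.49 for Stx1a, 1.84 for Cplx1 and 3.05 for Rims2. Among cells with Xist (10 and 34) it was -1.46, 2.01, 9.59, 1.77, 1.78, 1.68, 1.83 and 1.26 for the same genes. All 8 stayed past 2-fold in both, while Rims3 was at -1.58 with Y-linked transcripts and -0.99 with Xist. These 8 are the genes that stayed past 2-fold in OHCs under every alternative, both subsets included. Their staying so here is therefore no separate result. Of the other genes past 2-fold in OHCs, Dnajc5b changed sign with Y-linked transcripts and Sv2b with Xist. In IHCs, Syt4 was at 11.13 and 8.88 and Dnajc5b at -11.82 and -7.51, while Syt1 was at 1.21 and 0.93 and Bsn at 0.75 and 1.63.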

How the data were processed

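The deposited table holds raw counts of reads for each gene in each cell, made by the authors with HISAT2 2.2.1, SAMtools and featureCounts 2.0.1 on mm10, per the submitters' processing notes, without molecular identifiers. The annotation used, strandedness and handling of shared reads are not given in the sources used here, so reads of overlapping genes cannot be told apart. Of 55291 identifiers, 55034 (99.5%) matched GENCODE M21 (GRCm38, as mm10), which gave symbols, coordinates and exonic lengths. The others held 0.0128% of the counts. No 2 cells had identical columns, and the closest 2 cells of a group differed by a chi-squared of 275 per degree of freedom.

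Samples were grouped by their titles and genotype labels. The counts of a group's cells were added up and scaled to the group total (CPM), or scaled by exonic length (TPM). Because no label names the animal, there was no test. Levels have exact Poisson intervals, ratios exact conditional binomial (Clopper-Pearson) ones and shares of cells at 10 CPM exact binomial ones, all at 95%. PCR reads are not independent molecules, so those of levels and ratios cover counting error only. Those of shares take cells as independent draws, though the animals of the cells are not known. A sum of 0 was replaced by 3 counts per group, and a share of 0 cells allows 3 cells of the total. Genes at 1 CPM in at least 1 group were described, and called past 2-fold. Full values were given for those past 2-fold in a comparison or defining their class, and for the wider list for the 4 highest and 4 lowest ratios past 2-fold among genes at 10 CPM in the mean of both groups. The genes and lists were chosen with earlier results of these data known. Of the 107 wider genes, Vamp7 and Camlg, were not analysed here, and Get1 and Get3 were read as Wrb and Asna1. Alternatives were TMM factors, means and medians of cells, the highest cell left out, other filters, male or female cells alone, cells split by the pseudogene Gm15772, cells whose OHC and IHC markers go against their label left out, cells with supporting cell transcripts left out (chosen after seeing the data), and mitochondrial genes left out of totals. Ratio intervals were checked on simulated group sums with counting error alone, so the check says nothing of the spread between cells. Promoter windows came from RefSeq (GRCm38.p6). Python 3.11.15, numpy 2.4.6, pandas 2.3.3, scipy 1.17.1, R 4.3.3 and edgeR 4.0.16 (TMM only) were used.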

Additional observations from a re-analysis of the deposited data

Results flagged for a closer look

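Dnajc5b stood out because it was higher in mutants in 1 cell type and lower in the other. The OHC log2 ratio (5.29) and the IHC log2 ratio (-7.25) were 12.55 apart. The difference was not tested, since each group is 1 sample. The IHC part rested on 34 of 38 control cells at 10 CPM or more against 1 of 26 mutant cells, and the OHC part on 2 of 56 mutant cells. The OHC ratio changed sign in 2 of the alternatives, as given below.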

How the results depend on the processing

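No paired analysis was possible because no test was run and no label links cells of 2 groups. Cells are not animals, so leaving out replicates was not possible, and single cells set several ratios of sparse genes. Of the genes past 2-fold, 8 of 15 in OHCs (Cplx1, Otof, Rims2, Stx1a, Syt1, Syt2, Syt4 and Syt7), 3 of 8 in IHCs (Dnajc5b, Sv2b and Syt4) and 4 of 14 between controls (Dnajc5b, Napa, Rims2 and Syt2) stayed so under every alternative that gave a value. The changes of filter leave a gene's own ratio as it was, so no gene could fail under them. TMM factors and totals without mitochondrial genes shift all ratios of a comparison alike. The number at least 2-fold higher in OHCs, 12, ran from 10 to 15. The number at least 2-fold lower in OHCs, 3, was 6 by the median of cells and 5 with no filter, with Y-linked cells only and in either part of the Gm15772 split. In IHCs the 2 lower genes became 6 by the median of cells and with Y-linked cells only, 1 with a 10 CPM filter and 4 in either part of the Gm15772 split, and the 6 higher became 12 with Y-linked cells only and 14 under 40 CPM of Gm15772. These subsets leave as few as 7 Exp IHCs. Some ratios past 2-fold changed sign. In OHCs, Sv2b was at -1.90 in cells with Xist and -4.99 at 40 CPM or more of Gm15772, Syn2 was at -0.63 in the latter, and Dnajc5b was at -1.99 with Y-linked cells only and -2.20 under 40 CPM of Gm15772. In IHCs, Unc13b was at 0.26 with Y-linked cells only and 0.097 under 40 CPM of Gm15772, and Syt5 at -0.23 in cells with Xist. Between controls, Bsn was at -0.73 in cells with Xist and Sv2b at 1.10 at 40 CPM or more of Gm15772. The causes were not tested.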
